A study of Mus musculus with 4 samples.

Results

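RNA sequencing of cultured mouse DPCs (from the dermal papilla) and DSCs (from the dermal sheath) was used to follow the translation initiation and elongation factors. Both cells are mesenchymal, the first from the base of the hair follicle and the second from its outer wall. The genes were chosen by name, as those beginning with Eif1 to Eif6, Eef1 or Eef2, without the kinases named Eif2ak and without names marked as pseudogenes, and with raw counts that averaged 10 or more across the 4 libraries. Of 51826 listed genes, 62 had such a name and 60 passed the minimum, among 16734 genes tested. The remaining names, Eif4e1b and Eif2c5, had 0 counts in every library, which allows up to 3 counts. The 60 genes fell into 11 of the eIF2 group, 14 of the eIF3 group, 15 of the eIF4 group, 10 named eIF1, eIF5 or eIF6, and 10 of the elongation group.

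The cells were taken from whisker follicles of EGFP-transgenic C57BL/6J mice aged 5 to 6 weeks, and the sample labels give the genotype as WT. DPCs grew out of papillae picked by hand, DSCs came from enzymatically released sheaths, and both were kept in DMEM with serum. Passage 3 is called low passage and passage 9 high passage, no other treatment is listed, and each of the 4 groups was 1 library. Total counts were 35340038 at low and 34981284 at high passage for DPCs, and 38780425 and 47604059 for DSCs. Nothing in the sources used here says how many animals were pooled, and passage cannot be told apart from the culture or the library. Fibroblast genes (8 listed, such as Col1a1 and Vim) summed to 17556 and 6489 CPM (counts scaled to the size of the library) in low- and high-passage DPCs and to 25992 and 23466 CPM in DSCs. Col1a1 and Col1a2 gave most of these sums. The median log2 fold change of the fibroblast genes, passage 9 over passage 3, was -1.40 in DPCs and 0.30 in DSCs. Pdgfra was at 304 and 811 CPM in DPCs and at 121 and 266 CPM in DSCs, and Dcn at 116 and 153 CPM and at 86.8 and 1965 CPM. Dermal papilla markers (9 genes) did not point one way. Sox2 was at 45.6 and 41.5 CPM in DPCs and at 7.09 and 3.91 CPM in DSCs, whereas Ncam1, which is also a sheath marker, was at 99.0 and 46.6 CPM in DPCs and at 310.0 and 342 CPM in DSCs. Of the 6 papilla markers tested, 2 were higher and 2 lower in DPCs than in DSCs by 1.5-fold at passage 3, and 4 were higher and 2 lower at passage 9. Between low- and high-passage DPCs, Lef1 had 508 and 2 counts, Sox2 1677 and 1491, and Rspo3 70 and 196. Dermal sheath markers (5 genes, such as Acta2) summed to 9379 and 3491 CPM in DPCs and to 7699 and 6680 CPM in DSCs. Acta2 and Tagln gave most of these sums, and the sheath markers did not point one way. Their median log2 fold change, passage 9 over passage 3, was -1.65 in DPCs and 0.14 in DSCs. Itga8 was at 186 and 967 CPM in DPCs and at 44.1 and 511 CPM in DSCs. Myh11 was at 78.3 and 4.68 CPM in DPCs and at 28.0 and 69.3 CPM in DSCs. Keratinocyte, melanocyte and endothelial lists each summed to less than 5 CPM in every library.

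Translation begins when eIF2, bound to GTP and the initiator tRNA, joins the small ribosomal subunit together with eIF1, eIF1A, eIF3 and eIF5. The eIF4 proteins bring in the mRNA: eIF4E holds the 5′ cap, eIF4A unwinds the leader with the help of eIF4B and eIF4H, and eIF4G ties them to eIF3. Elongation then runs on eEF1A, which delivers aminoacyl-tRNA, on the eEF1B complex, which recharges eEF1A with GTP, and on eEF2, which moves the ribosome along. The pathway is held back by phosphorylation of eIF2, by the 4E-BP proteins, which bind eIF4E when mTORC1 is inactive, and by eEF2 kinase. Growing cells make much of this machinery, and it is among the known targets of Myc.

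Most of the factors were lower at passage 9 in both cell types. In DPCs 52 of the 60 genes lay below 0 on the log2 scale, with a median log2 fold change of -0.48, while all tested genes had a median of 0.03. In DSCs 53 lay below 0, with a median of -0.25 against 0.00 for all tested genes. Both changes were negative for 49 genes (81.7%), against 34.4% of all tested genes. The fold changes compare library-scaled CPM (TMM scaling) of 1 library with 1 library, so they have no replicate check and carry no p-value. In bulk RNA, fewer cells of a kind and less RNA per cell cannot be told apart.

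Past 1.5-fold, 27 factors were lower in high-passage DPCs (45.0%), where 25.6% of all tested genes were, and 1 was higher, where 26.5% of tested genes were. In DSCs 5 were lower (8.33%, background 14.0%) and 1 was higher (background 16.7%). The shift in DSCs was therefore a small one shared by most factors, and fewer of them passed 1.5-fold than of genes in general. At 2-fold, 12 factors were lower in DPCs (background 15.0%) and 1 in DSCs (background 6.21%). At 4-fold, 0 factors were lower in either cell type (background 4.36% in DPCs and 1.16% in DSCs). The factors below 1.5-fold in both cell types were Eef1a2, Eef1akmt1, Eef2k, Eif4ebp1 and Eif5a, which is 5 of 60, where 8.72% of tested genes were. The change in DPCs was below that in DSCs for 45 of the 60 factors (75.0%, against 50.6% of tested genes), with a median difference of -0.29.

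**Figure D1:**
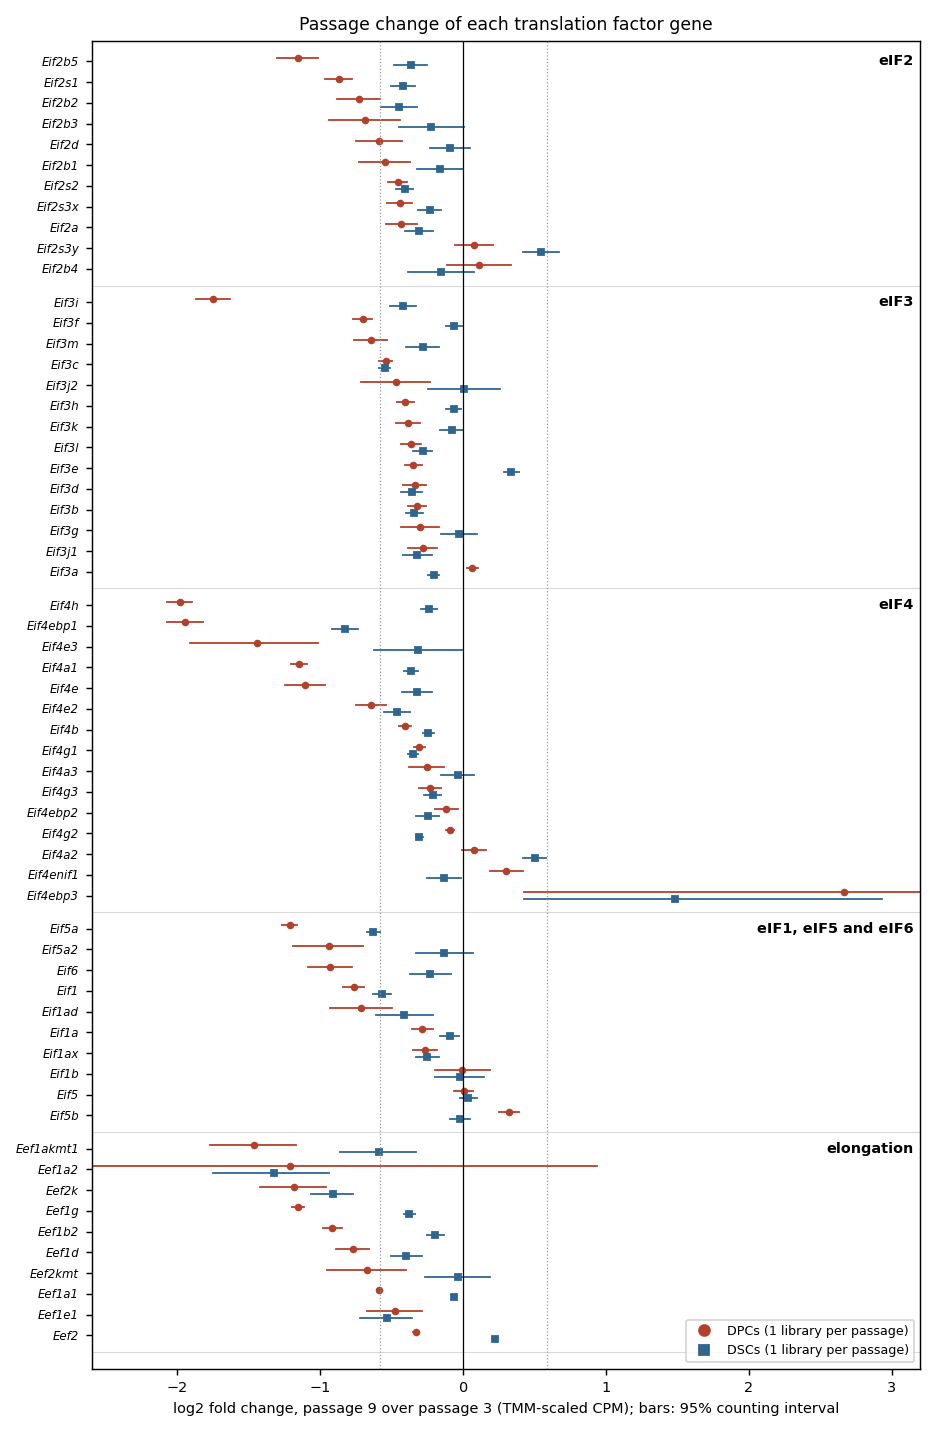
Log2 fold change of each of the 60 genes, passage 9 over passage 3, in DPCs (circles) and DSCs (squares), ordered within each group by the value in DPCs. Bars are 95% counting intervals on halved counts, cut off at the edge of the plot for Eef1a2 and Eif4ebp3, dotted lines mark 1.5-fold, and most points of both kinds lie left of 0.

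Counting error was small beside these changes for most genes. The interval, an exact Clopper-Pearson 95% interval of the share of reads in 1 of the 2 libraries, excluded 0 for 54 factors in DPCs and for 49 in DSCs. It was computed on halved counts because both mates of a read pair appear to have been counted. It covers counting error only and compares 2 libraries, not 2 conditions. An additive model of cell type and passage (edgeR quasi-likelihood test with Benjamini-Hochberg adjustment) gave an adjusted p under 0.05 for 0 factors and for 0 of 16734 genes. Its single residual degree of freedom measures how far DPCs and DSCs differ in response, not replicate cultures. The smallest adjusted p of a factor was 0.202. At an unadjusted p under 0.05 the same model gave 10 factors lower (background 7.79%) and 1 higher (background 9.07%). DESeq2 with the same terms gave adjusted p-values of 0.0079 for Eif4ebp1 and 0.042 for Eef2k, where 2.71% of tested genes were called lower and 2.99% higher.

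**Figure D2:**
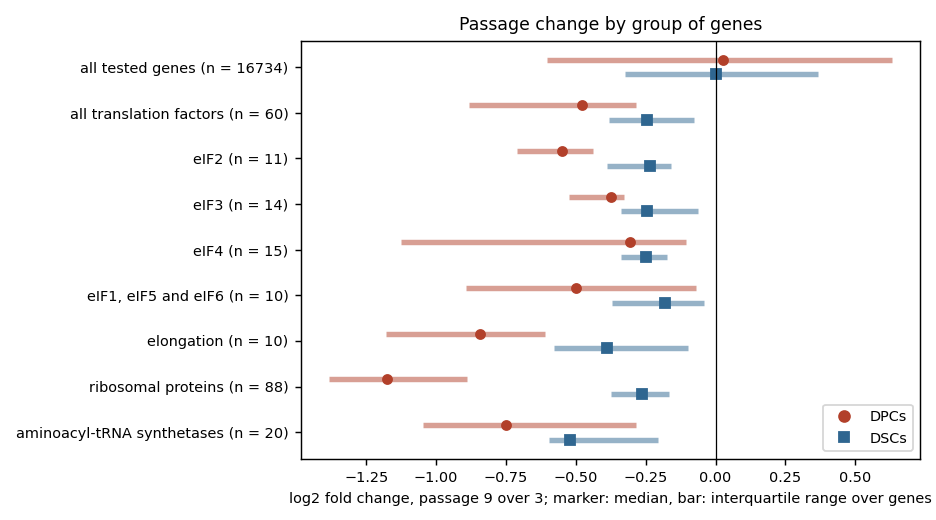
Median (marker) and interquartile range (bar) of the log2 fold change, passage 9 over passage 3, for all tested genes, the translation factors and their groups, ribosomal proteins and aminoacyl-tRNA synthetases, in DPCs (circles) and DSCs (squares). The elongation group has the lowest median of the factor groups in both cell types (-0.84 and -0.39), and the bars show spread over genes, not over samples.

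Together the 60 genes took 2.29% of all counts in low-passage DPCs and 1.60% in high-passage DPCs, and 2.03% and 1.84% in low- and high-passage DSCs. Eef1a1 and Eef2 alone made up between 49.5% and 54.9% of those counts. Levels of different genes are compared as FPKM (fragments scaled by transcript length and library depth, as deposited). Eef1a1 led at 3705 FPKM in low-passage DPCs and at 2453, 3262 and 3066 FPKM in high-passage DPCs and low- and high-passage DSCs. The group medians in low-passage DPCs were 23.7 FPKM for eIF2, 99.2 for eIF3, 54.9 for eIF4, 53.1 for elongation and 29.1 for eIF1, eIF5 and eIF6. In high-passage DPCs they were 21.4, 64.3, 27.9, 31.8 and 23.5 FPKM in the same order. In DSCs the eIF2 median was higher at passage 9, at 18.9 and 23.1 FPKM in low- and high-passage DSCs. The other medians, in the order above, were 86.9, 44.6, 44.3 and 24.2 FPKM in low-passage DSCs and 69.8, 32.03, 31.0 and 21.6 FPKM in high-passage DSCs. Such medians can fall on different genes. The eIF2 median in DSCs fell on Eif2s3y at passage 3 and at passage 9 on Eif2s1, which itself was at 31.4 and 23.1 FPKM. By counts, 10 of the 11 eIF2 genes were lower at passage 9 in DSCs. The eIF4 median in DPCs fell on Eif4a2 at passage 3 and on Eif4enif1 at passage 9. The eIF3 group had the highest median in every library, and Eef1a2 and Eif4ebp3 had the lowest levels of their groups.

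**Figure D3:**
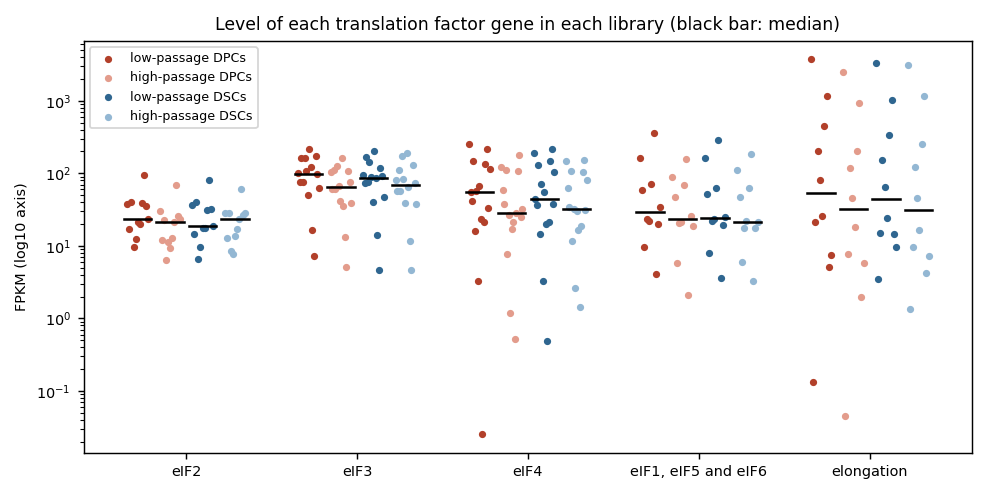
FPKM of each factor gene (points, log10 axis) in each of the 4 libraries, by group, with the group median as a black bar. The eIF3 medians lie between 64.3 and 99.2 FPKM, and the elongation group spans the widest range, from Eef1a2 at 0.045 FPKM to Eef1a1 at 3705 FPKM.

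Some of the factors carry a canonical E-box, CACGTG, within 250 bases upstream of a start. This is the palindrome bound by Myc and by related basic helix-loop-helix factors, and it reads the same on both strands. RefSeq promoter windows (build GRCm38.p6) were at hand for 46 of the 60 genes, and the 250 bases before each start were searched. The search was chosen after the fold changes had been seen. An E-box was present for 11 of the 46 genes (23.9%) and in 21.7% of their 60 windows, against 6.02% of all 32851 windows and 7.61% of 17492 protein-coding genes with a window. Neither background was limited to genes that passed the minimum count, as the factors did. The genes were Eef2, Eef2k, Eif1b, Eif3f, Eif3k, Eif4a1, Eif4e, Eif4g1, Eif4h, Eif5a and Eif5a2. Their median log2 fold change was -0.94 in DPCs and -0.24 in DSCs, and that of the other genes with a window was -0.43 and -0.25. The genes without a window were Eef1akmt1, Eef1d, Eef1g, Eif1a, Eif2b3, Eif3e, Eif3h, Eif3i, Eif3j2, Eif4e3, Eif4ebp1, Eif4ebp3, Eif4g2 and Eif6. Of the 12 factors lower by 2-fold in DPCs, 5 had an E-box and 5 had no window, so these medians leave out some of the lowest genes. The range of the 11 genes in DPCs, from -1.99 for Eif4h to -0.01 for Eif1b, overlaps that of the others, and the match was not tested against expression. Windows around the E-box (in capitals) are shown 5′ to 3′ on the coding strand for the cap-binding and unwinding factors, eIF5A and the genes of eEF2 and its kinase.
Eif4h (chr5:134639473-134639532, minus strand): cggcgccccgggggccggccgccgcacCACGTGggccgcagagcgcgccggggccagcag
Eif4e (chr3:138527177-138527236, plus strand): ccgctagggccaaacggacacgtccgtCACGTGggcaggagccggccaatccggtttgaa
Eif4a1 (chr11:69672580-69672639, minus strand): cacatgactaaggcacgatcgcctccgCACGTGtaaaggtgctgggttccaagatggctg
Eif4g1 (chr16:20672646-20672705, plus strand): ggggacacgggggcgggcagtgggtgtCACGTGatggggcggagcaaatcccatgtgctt
Eif5a (chr11:69921428-69921487, minus strand): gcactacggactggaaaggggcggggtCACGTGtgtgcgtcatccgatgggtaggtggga
Eif5a2 (chr3:28781108-28781167, plus strand): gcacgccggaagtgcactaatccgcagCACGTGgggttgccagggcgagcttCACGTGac
Eef2 (chr10:81176561-81176620, plus strand): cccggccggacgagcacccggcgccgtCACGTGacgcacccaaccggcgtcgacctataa
Eef2k (chr7:120842773-120842830, plus strand): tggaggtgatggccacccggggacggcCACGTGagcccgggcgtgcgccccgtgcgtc
The E-box began 96 bases before the start in Eif4h, 64 in Eif4e (with another at 228), 54 in Eif4g1, 43 in Eef2 and 31 in Eef2k. It lay farther out in Eif4a1, at 189 bases. The Eif5a2 stretch holds a pair of E-boxes, which begin 142 and 117 bases before the start, whereas Eif5a has them at 74 and 178 bases in windows of different starts, of which the first is shown.

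The eIF2 group holds the subunits of eIF2 and of eIF2B, the exchange factor that reloads eIF2 with GTP. Its median log2 fold change was -0.55 in DPCs and -0.23 in DSCs. Lower by 1.5-fold in DPCs were 5 of the 11 genes (45.5%, background 25.6%), and in DSCs 0 were (background 14.0%). Eif2s1, which encodes the α subunit phosphorylated under stress, was at 144 CPM in low-passage and 78.7 in high-passage DPCs and at 122 and 91.2 CPM in DSCs. The log2 fold changes were -0.87 (-0.97 to -0.78) in DPCs and -0.42 (-0.51 to -0.33) in DSCs. Eif2s2, the β subunit, was at 259 CPM in low-passage and 188 in high-passage DPCs and at 239.9 and 180.4 CPM in DSCs. Its changes were nearly equal in the cell types, -0.46 in DPCs and -0.41 in DSCs.

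The γ subunit, which binds GTP and the initiator tRNA, is encoded by an X-linked and a Y-linked copy. Eif2s3x was at 139 CPM in low-passage and 102 in high-passage DPCs and at 133 and 113 CPM in DSCs (log2 fold changes -0.44 in DPCs and -0.23 in DSCs). Eif2s3y was at 48.0 CPM in low-passage and 50.7 in high-passage DPCs and at 43.2 and 62.9 CPM in DSCs (log2 fold changes 0.08 (-0.06 to 0.21) in DPCs and 0.54 (0.42 to 0.67) in DSCs). The Y-linked copy thus made up 40.0% and 47.1% of the summed FPKM in low- and high-passage DPCs, and 37.0% and 51.5% in DSCs. Of the X-linked copy, 34.6% of 50-base windows also occur in other genes. Other Y-linked genes did not move as one: Ddx3y had 3114 and 2037 counts in low- and high-passage DPCs and 2269 and 3959 in DSCs, while Uty had 854 and 1250 in DPCs and 805 and 1221 in DSCs. Xist was at 12 counts or fewer in every library.

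Of the 5 eIF2B subunits, 4 lay below 0 in DPCs and 5 in DSCs, with medians of -0.69 and -0.22. Eif2b5 encodes the catalytic ε subunit and had the lowest fold change of the group in DPCs. It was at 72.7 CPM in low-passage and 32.5 in high-passage DPCs and at 64.4 and 49.9 CPM in DSCs, with log2 fold changes of -1.16 (-1.30 to -1.02) in DPCs and -0.37 (-0.49 to -0.25) in DSCs. Eif2b2 (β) had the lowest fold change of the group in DSCs, from 57.5 to 42.1 CPM, a log2 fold change of -0.45, and went from 54.3 to 32.7 CPM in DPCs. Eif2b4 (δ) stood apart at 17.4 CPM in low-passage and 18.8 in high-passage DPCs and at 16.1 and 14.5 CPM in DSCs. Its log2 fold changes were 0.11 in DPCs, with an interval of -0.12 to 0.33 that includes 0, and -0.16 in DSCs. By FPKM, Eif2b4 was at -0.13 in DPCs. Eif2b1 (α) and Eif2b3 (γ) had changes of -0.55 and -0.69 in DPCs. In DSCs Eif2b3 was at -0.22 by counts and at 0.36 by FPKM. Eif2a and Eif2d, which carry the name but are no subunits of eIF2, were at -0.43 and -0.59 in DPCs and -0.31 and -0.09 in DSCs.

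The eIF3 group encodes the scaffold that holds the small subunit and the mRNA, and apart from Eif3i its genes had log2 fold changes between -0.70 and 0.06 in DPCs. Its median was -0.38 in DPCs and -0.25 in DSCs, with 13 and 12 of 14 genes below 0. Lower by 1.5-fold in DPCs were 3 (Eif3i, Eif3f and Eif3m), which is 21.4% and near the background of 25.6%, and 0 were in DSCs (background 14.0%). Set against genes of like length and GC content, Eif3m was at -0.30 in DPCs, whereas Eif3e and Eif3j2 passed 1.5-fold, at -0.59 and -0.76. Eif3i (chromosome 4, 129591960 to 129600648, build GRCm38) encodes a WD-repeat subunit at the edge of the complex. It was at 142 CPM in low-passage and 42.2 in high-passage DPCs and at 109 and 81.6 CPM in DSCs. The log2 fold changes of Eif3i were -1.75 (-1.87 to -1.63) in DPCs and -0.42 (-0.51 to -0.33) in DSCs, so high-passage DPCs stood apart from the other libraries.

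Eif3a, the largest subunit and a core of the assembly, was at 563 CPM in low-passage and 589 in high-passage DPCs and at 568 and 493 CPM in DSCs. Its log2 fold changes were 0.06 (0.02 to 0.10) in DPCs and -0.21 (-0.24 to -0.17) in DSCs, the highest of the group in DPCs. Set against genes of like length and GC content, Eif3a was at -0.12 and -0.27. The core subunits Eif3b and Eif3c had nearly the same change in each cell type, -0.32 and -0.34 for Eif3b and -0.54 and -0.55 for Eif3c. Eif3c went from 570.4 to 392 CPM in DPCs and from 618 to 422 CPM in DSCs, the lowest fold change of the group in DSCs. Eif3e, a subunit that contacts eIF4G, was at 271 CPM in low-passage and 213 in high-passage DPCs and at 250.2 and 316 CPM in DSCs. It was the only eIF3 gene whose interval lay below 0 in DPCs and above 0 in DSCs, with log2 fold changes of -0.35 (-0.41 to -0.29) in DPCs and 0.34 (0.28 to 0.39) in DSCs. The remaining subunits ran from -0.28 (Eif3j1) to -0.70 (Eif3f) in DPCs and from -0.36 (Eif3d) to 0.01 (Eif3j2) in DSCs. Eif3j1 was at 93.8 CPM in low-passage and 77.0 in high-passage DPCs and at 88.4 and 70.7 CPM in DSCs, and Eif3j2 at 18.7 CPM in low-passage and 13.4 in high-passage DPCs and at 12.8 and 12.8 CPM in DSCs. Their log2 fold changes were -0.28 and -0.47 in DPCs and -0.32 and 0.01 in DSCs. These near-identical genes share 50.9% and 91.8% of their 50-base windows, so the split of reads between them is uncertain. Eif3d shares 37.2% of its windows with a gene on the opposite strand.

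In DPCs the eIF4 group held both the lowest fold changes and some of the flattest genes. Its median was -0.31 in DPCs, with an interquartile range of -1.13 to -0.11, and -0.25 in DSCs. Lower by 1.5-fold in DPCs were 6 of 15 genes (40.0%, background 25.6%), 5 of them also by 2-fold. Eif4h (chromosome 5, 134619721 to 134639490) encodes the factor that boosts the helicase eIF4A and had the lowest fold change of all 60 genes in DPCs. It had 10887 and 2680 counts in low- and high-passage DPCs and 10156 and 10333 in DSCs, which places it at 296 CPM in low-passage and 74.7 in high-passage DPCs and at 268 and 227 CPM in DSCs. The log2 fold changes were -1.99 (-2.07 to -1.90) in DPCs and -0.24 (-0.30 to -0.18) in DSCs. High-passage DPCs alone were low, and the other 3 libraries lay between 227 and 296 CPM. Eif4b, the other helper of eIF4A, was closer to level, from 624 to 469.9 CPM in DPCs and from 574 to 484 CPM in DSCs (log2 fold changes -0.41 in DPCs and -0.25 in DSCs).

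The helicase itself is encoded by paralogs with different values. Eif4a1 (chromosome 11, 69666936 to 69672423), the main form in growing cells, was at 457 CPM in low-passage and 206 in high-passage DPCs and at 368 and 286 CPM in DSCs, with log2 fold changes of -1.15 (-1.21 to -1.09) in DPCs and -0.36 (-0.41 to -0.31) in DSCs. Eif4a2 was at 122 CPM in low-passage and 128 in high-passage DPCs and at 103 and 146 CPM in DSCs, with log2 fold changes of 0.08 (-0.01 to 0.16) in DPCs and 0.50 (0.42 to 0.58) in DSCs. Eif4a1 supplied 72.4% of the eIF4A FPKM in low-passage DPCs and 55.3% in high-passage DPCs, and 69.9% and 60.7% in DSCs. Eif4a3, a part of the exon junction complex rather than of cap binding, was at 66.2 CPM in low-passage and 55.5 in high-passage DPCs and at 58.3 and 56.8 CPM in DSCs, with -0.25 in DPCs and -0.04 in DSCs on the log2 scale. Eif4a1 shares 28.4% of its windows with pseudogenes and small RNA genes.

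The cap-binding protein gene Eif4e (chromosome 3, 138526179 to 138559696) was at 75.7 CPM in low-passage and 35.1 in high-passage DPCs and at 78.1 and 62.4 CPM in DSCs, with log2 fold changes of -1.11 (-1.24 to -0.97) in DPCs and -0.32 (-0.43 to -0.22) in DSCs. Eif4e2, a cap-binding homolog known as a repressor, was at 104 CPM in low-passage and 66.7 in high-passage DPCs and at 112 and 81.7 CPM in DSCs. Eif4e3 was at 9.02 CPM in low-passage and 3.29 in high-passage DPCs and at 9.55 and 7.66 CPM in DSCs. Its log2 fold changes were -1.44 (-1.91 to -1.02) in DPCs and -0.32 (-0.63 to -0.01) in DSCs. All eIF4E genes were thus lower at passage 9 in both cell types, with group medians of -1.11 and -0.32. Eif4e2 held between 69.3% and 79.9% of the summed FPKM of the set. Its log2 fold change was further from 0 by FPKM, at -1.09 in DPCs and -1.14 in DSCs, than by counts, at -0.64 and -0.46.

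The eIF4G scaffolds were lower by less than 1.5-fold in both cell types, with medians of -0.23 in DPCs and -0.31 in DSCs. Eif4g1 was at 674 CPM in low-passage and 544 in high-passage DPCs and at 743 and 583 CPM in DSCs, and Eif4g3 at 168 CPM in low-passage and 142 in high-passage DPCs and at 216 and 186 CPM in DSCs. Eif4g2, which encodes a relative that lacks the eIF4E site, was the most abundant at 1055 CPM in low-passage and 990.2 in high-passage DPCs and at 1155 and 934 CPM in DSCs. Their log2 fold changes lay between -0.31 and -0.09 in DPCs and between -0.35 and -0.21 in DSCs. By FPKM, Eif4g1 and Eif4g2 were at -0.52 and -0.51 in DSCs, and the share of Eif4g2 stayed between 52.9% and 57.9% of the set. Eif4enif1, which carries eIF4E into the nucleus and into RNA granules, went from 61.1 to 75.3 CPM in DPCs and from 58.4 to 53.2 CPM in DSCs.

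The inhibitors of eIF4E, the 4E-BPs, had different values. Eif4ebp1 (chromosome 8, 27260329 to 27276674) had 5310 and 1344 counts in low- and high-passage DPCs and 4804 and 3248 in DSCs, which places it at 144 CPM in low-passage and 37.5 in high-passage DPCs and at 127 and 71.3 CPM in DSCs. The log2 fold changes were -1.94 (-2.07 to -1.82) in DPCs and -0.83 (-0.92 to -0.74) in DSCs, the lowest of the group in DSCs and next to the lowest in DPCs. Eif4ebp2 was at 144 CPM in low-passage and 133 in high-passage DPCs and at 133 and 112 CPM in DSCs, with log2 fold changes of -0.12 in DPCs and -0.25 in DSCs. By FPKM, Eif4ebp1 supplied 74.1% of the set in low-passage DPCs and 44.0% in high-passage DPCs, where Eif4ebp2 led with 54.6%. In DSCs Eif4ebp1 kept the lead, at 72.6% and 62.6%. Eif4ebp3 had 1 and 16 counts in low- and high-passage DPCs and 16 and 58 in DSCs. It was the only factor higher by 1.5-fold in either cell type, with a log2 fold change of 1.48 (0.43 to 2.93) in DSCs and of 2.66 in DPCs, where the single count at passage 3 left the interval at 0.42 to 14.16. Of all tested genes, 10.5% were higher by 1.5-fold in both cell types. Of the exons of Eif4ebp3, 67.3% overlap another annotated gene on the same strand, and the count of Eif4ebp3 in low-passage DPCs was under the 3 counts that a count of 0 allows.

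**Figure D4:**
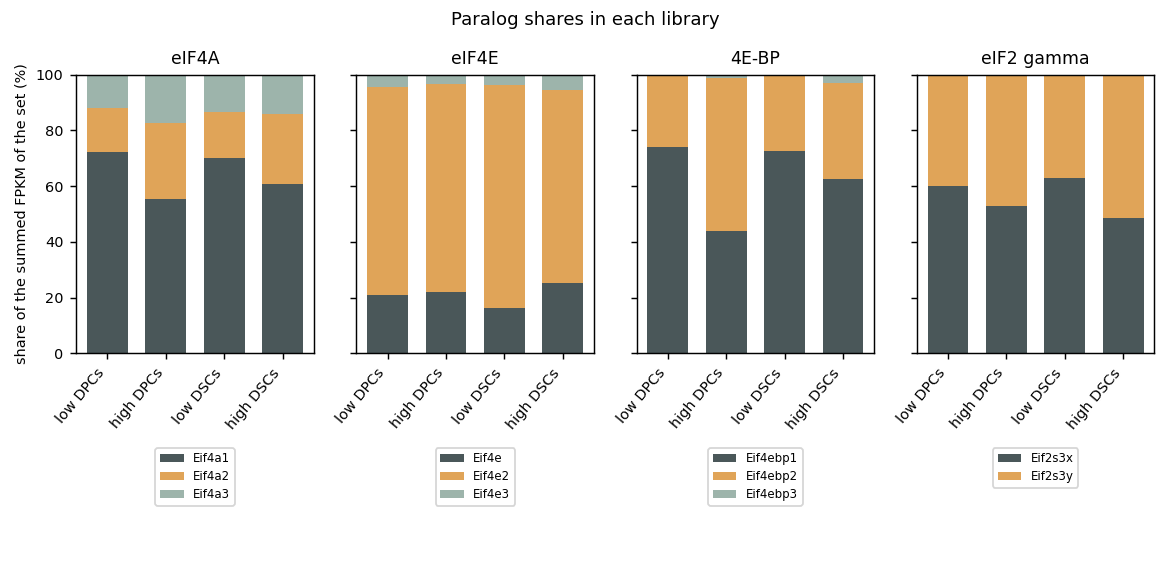
Share of each paralog in the summed FPKM of its set (%) in the 4 libraries, for eIF4A, eIF4E, the 4E-BPs and the γ subunit of eIF2. Eif4a1 and Eif4ebp1 take smaller shares at high passage in both cell types, and Eif4ebp2 exceeds Eif4ebp1 only in high-passage DPCs (54.6%).

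Among the factors that act at the start codon and beyond, eIF1, which guards start-codon choice, and eIF5A, which helps the ribosome through difficult peptide bonds, were lower in both cell types. The group median was -0.50 in DPCs and -0.18 in DSCs, with 5 and 1 of 10 genes lower by 1.5-fold (background 25.6% and 14.0%). Eif5a (chromosome 11, 69916714 to 69921958) was at 525 CPM in low-passage and 226 in high-passage DPCs and at 445 and 288 CPM in DSCs, with log2 fold changes of -1.22 (-1.27 to -1.16) in DPCs and -0.63 (-0.68 to -0.58) in DSCs. Eif5a2, its scarce paralog, was at 22.6 CPM in low-passage and 11.8 in high-passage DPCs and at 21.2 and 19.3 CPM in DSCs, with -0.94 in DPCs and -0.13 in DSCs on the log2 scale. Eif5a supplied between 98.3% and 98.9% of their summed FPKM. Eif1 was at 213 CPM in low-passage and 125 in high-passage DPCs and at 242 and 163 CPM in DSCs, with log2 fold changes of -0.77 (-0.84 to -0.69) in DPCs and -0.57 (-0.63 to -0.51) in DSCs. Eif6, which keeps the large subunit from joining early, was at 55.1 CPM in low-passage and 28.8 in high-passage DPCs and at 42.4 and 36.2 CPM in DSCs, with log2 fold changes of -0.93 in DPCs and -0.23 in DSCs.

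The remaining genes of this group had log2 fold changes from -0.71 (Eif1ad) to 0.32 (Eif5b) in DPCs. Eif5, the GTPase activator of eIF2, was at 207 CPM in low-passage and 208 in high-passage DPCs and at 205 and 210.3 CPM in DSCs, and both its intervals include 0. Eif5b, which joins the subunits, was at 168 CPM in low-passage and 209 in high-passage DPCs and at 160.5 and 158 CPM in DSCs, with log2 fold changes of 0.32 (0.25 to 0.39) in DPCs and -0.02 (-0.09 to 0.05) in DSCs. Of the eIF1A genes, Eif1a was at 181 CPM in low-passage and 149 in high-passage DPCs and at 169.8 and 159 CPM in DSCs, and Eif1ax at 132 CPM in low-passage and 110.1 in high-passage DPCs and at 129 and 108 CPM in DSCs. Their log2 fold changes were -0.29 and -0.27 in DPCs and -0.10 and -0.25 in DSCs. Eif1a supplied 69.7% to 72.6% of their FPKM. Eif1b had changes of -0.01 and -0.02 and Eif1ad of -0.71 and -0.41.

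The elongation group had the lowest medians, -0.84 in DPCs and -0.39 in DSCs. All 10 genes lay below 0 in DPCs and 9 in DSCs, and 8 and 3 were lower by 1.5-fold (80.0% and 30.0%, background 25.6% and 14.0%). Eef1a1, the most abundant gene of the set, had 263613 and 170877 counts in low- and high-passage DPCs and 253796 and 291540 in DSCs. On the CPM scale it was at 7163 CPM in low-passage and 4762 in high-passage DPCs and at 6693 and 6397 CPM in DSCs, with log2 fold changes of -0.59 (-0.60 to -0.58) in DPCs and -0.07 (-0.08 to -0.05) in DSCs. Of its windows, 40.4% occur in other genes, mostly pseudogenes. Eef1a2, the muscle and neuron paralog, had 12 and 4 counts in DPCs and 322 and 153 in DSCs. The log2 fold change was -1.33 (-1.75 to -0.94) in DSCs and -1.21 in DPCs, where the interval (-4.89 to 0.93) includes 0. DPCs were below DSCs for Eef1a2 at both passages, with log2 differences of -4.50 at passage 3 and -4.39 at passage 9 (-3.34 at passage 9 by FPKM), and Eef1a1 supplied at least 99.89% of their FPKM in every library. Skeletal muscle markers (4 genes) summed to 40.6 and 0.362 CPM in low- and high-passage DPCs and to 48.5 and 24.0 CPM in DSCs, with Acta1 giving nearly all of these counts and 1 to 3 of the 4 genes at 0. Their part in the Eef1a2 values was not tested.

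The subunits of the exchange complex of eEF1A were lower together. Eef1g was at 885 CPM in low-passage and 397 in high-passage DPCs and at 692 and 533 CPM in DSCs, with log2 fold changes of -1.16 (-1.20 to -1.12) in DPCs and -0.38 (-0.41 to -0.34) in DSCs, and 44.2% of its windows are shared with other genes. Eef1b2 and Eef1d, the exchange subunits, had changes of -0.92 and -0.77 in DPCs and -0.20 and -0.40 in DSCs. Eef1e1, whose protein belongs to the aminoacyl-tRNA synthetase complex, was at -0.48 and -0.54. Eef1akmt1, which methylates eEF1A, was at 19.6 CPM in low-passage and 7.08 in high-passage DPCs and at 14.3 and 9.48 CPM in DSCs, with log2 fold changes of -1.46 (-1.77 to -1.17) in DPCs and -0.59 (-0.86 to -0.33) in DSCs, the lowest of the group in DPCs. Set against genes of like length and GC content, Eef1akmt1 was at -0.72 in DPCs and at -0.31 in DSCs, which is short of 1.5-fold.

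The translocase and its kinase had different values. Eef2 (chromosome 10, 81176631 to 81182498) had 142911 and 110672 counts in low- and high-passage DPCs and 135740 and 190008 in DSCs, which places it at 3883 CPM in low-passage and 3084 in high-passage DPCs and at 3579 and 4169 CPM in DSCs. Its log2 fold changes were -0.33 (-0.35 to -0.32) in DPCs and 0.22 (0.21 to 0.23) in DSCs, so it was the only elongation gene above 0 in DSCs. Eef2k, which inactivates eEF2, was at 28.0 CPM in low-passage and 12.3 in high-passage DPCs and at 50.8 and 26.9 CPM in DSCs, with log2 fold changes of -1.19 (-1.43 to -0.96) in DPCs and -0.91 (-1.06 to -0.77) in DSCs. It was also lower in DPCs than in DSCs, with log2 differences of -0.86 at passage 3 and -1.13 at passage 9. By FPKM, Eef2k was at -1.75 in DSCs, and its difference between the cell types at passage 3 was -1.505. Eef2kmt, which methylates eEF2, was at -0.67 and -0.04.

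Between the cell types the factors differed little at passage 3. The median log2 difference, DPCs over DSCs, was 0.10, with 3 genes lower in DPCs by 1.5-fold (background 14.1%) and 0 higher (background 11.9%). The 3 were Eef1a2, Eif4ebp3 and Eef2k. At passage 9 the median was -0.22, with 11 lower (18.3%, background 19.7%) and 0 higher (background 17.6%). Eif4h at -1.60 and Eif4e3 at -1.21 were now among the lowest, and the others were Eef1a2, Eif4ebp3, Eef2k, Eif3i, Eif4ebp1, Eif4e, Eif5a2, Eef2kmt and Eif2b5. Eif4enif1 had the highest value at passage 9, at 0.50. These contrasts share libraries with the passage contrasts and are not independent of them.

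Genes of the same pathway that carry other names, activators and inhibitors pooled, had medians near 0. The lists within this pool differed, with DPC medians from 0.84 (eIF2 kinases) to -0.87 (eIF2 phosphatase and stress). Of 44 regulators and partners, 11 were lower and 11 higher by 1.5-fold in DPCs, with a median of 0.15, close to the background of 25.6% lower and 26.5% higher. In DSCs 3 were lower and 3 higher, with a median of -0.08 (background 14.0% and 16.7%). The kinases that phosphorylate eIF2 were all higher by 1.5-fold in DPCs, with log2 fold changes of 0.93 (Eif2ak1), 0.85 (Eif2ak2), 0.83 (Eif2ak3) and 0.69 (Eif2ak4). In DSCs only Eif2ak2 was, at 0.61. Ppp1r15a, a phosphatase subunit that reverses this mark, was at 1.17 in DPCs and -0.10 in DSCs, and its constitutive relative Ppp1r15b at -0.89 and -0.48. Atf4, the factor translated when eIF2 is phosphorylated, was at 0.36 and -0.53, and Trib3, one of its known targets, had 2294 and 56 counts in DPCs and 3130 and 1249 in DSCs. In the mTORC1 arm, 1 of 12 genes was lower and 2 were higher by 1.5-fold in DPCs (background 25.6% and 26.5%). In DSCs 0 were lower and 0 higher (background 14.0% and 16.7%). The inhibitors Tsc1 and Tsc2 were at 0.68 and 0.74 in DPCs and at -0.07 and 0.20 in DSCs. The mTORC1 genes Rptor, Mlst8 and Mtor were at 0.51, 0.22 and -0.22 in DPCs and at 0.11, 0.03 and 0.04 in DSCs. Mknk2, which phosphorylates eIF4E, was at -1.23 and -0.43. Of 5 genes for poly(A) binding, 3 were lower and 1 higher by 1.5-fold in DPCs, and 1 was lower and 1 higher in DSCs. The eIF4G partners Pabpc1 and Pabpc4 were at -0.68 and -1.62 in DPCs and at -0.34 and -0.75 in DSCs, and the binding-protein partner genes Paip1, Paip2 and Paip2b were at 0.03, 0.72 and -0.63 in DPCs and at 0.14, 0.62 and -0.22 in DSCs. The genes that make the hypusine of eIF5A, Dhps and Dohh, were at -0.03 and 0.22 in DPCs, and of 6 genes for the diphthamide of eEF2, 2 were lower and 1 higher (Dph3) by 1.5-fold there, with a median of 0.04. Myc was at -1.11 in DPCs and -0.96 in DSCs.

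Ribosomal proteins and aminoacyl-tRNA synthetases were set beside the factors. The 88 ribosomal protein genes had a median of -1.18 in DPCs, with 82 lower by 1.5-fold (93.2%, background 25.6%). In DSCs their median was -0.26, with 3 lower (3.41%, background 14.0%). The 20 cytosolic synthetases had -0.75 in DPCs, with 13 lower (65.0%), and -0.52 in DSCs, with 8 lower (40.0%), against the same backgrounds. In DPCs the median of the factors, -0.48, was the nearest to 0 of the 3 sets, and in DSCs, at -0.25, it was close to that of ribosomal proteins. None of these differences was tested, because there is 1 library per group.

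Other measures moved with passage alongside the factors. Proliferation markers (10 genes) had a median of -2.95 in DPCs, with 10 of 10 lower by 1.5-fold (background 25.6%), and -1.41 in DSCs, with 9 lower (background 14.0%). Their summed level was 726 and 153 CPM in low- and high-passage DPCs and 606 and 237 CPM in DSCs. Immune markers (6 genes) summed to 113 and 63.7 CPM in DPCs and to 164 and 92.2 CPM in DSCs, with 1 of the 6 at 0 in every library, and Schwann cell markers (6 genes) to 12.1 and 3.65 CPM and to 30.5 and 5.09 CPM. The part of these shifts in the factors' change was not tested.

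Transcript length moved with the DPC change over all genes. The median log2 fold change ran from -0.46 in the shortest of 8 length classes to 0.19 in the longest in DPCs, and from -0.17 to 0.02 in DSCs. Translation factors had a median length of 2529 bases, against 2822 for all tested genes and 897 for ribosomal proteins. They lay below all tested genes in 7 of the 8 classes in each cell type. When every gene was set against genes of like length and GC content, the factors' medians were -0.54 in DPCs and -0.27 in DSCs, and that of ribosomal proteins in DPCs went from -1.18 to -0.74.

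**Figure D5:**
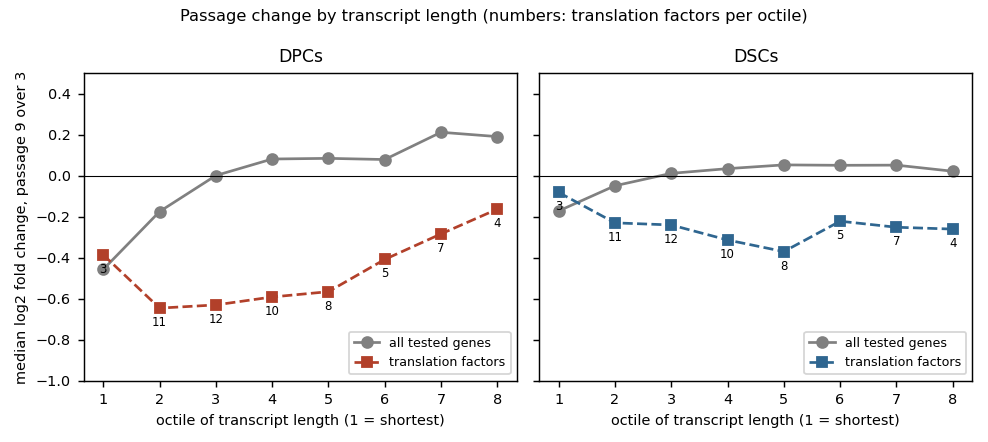
Median log2 fold change, passage 9 over passage 3, by octile of transcript length (1 is the shortest) for all tested genes (circles, solid line) and translation factors (squares, dashed line), in DPCs and DSCs. The numbers are factor genes per octile (3 to 12, too few for a firm median), and the factors lie below all tested genes in every octile but the shortest.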

How the data were processed

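The authors deposited raw counts per gene for 4 libraries (whole numbers, not normalized) and, per the file headers, FPKM per library, scaled for transcript length and depth. The submitters' processing notes name Bowtie 0.12.2 and the builds mm8 and mm9, while gene positions in the deposited tables match GRCm38 (GENCODE M21). Poly-T selection and paired-end reads are given in the study's methods, and the labels name another library kit. The aligner's role, the counter and the use of strand were not given in the sources used here, so genes that overlap or have near-identical copies are uncertain.

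Counts were scaled by TMM in edgeR 4.0.16 (R 4.3.3, limma 3.58.1) over 16734 genes with a mean count of at least 10. Fold changes subtract log2 CPM values, with 2 as the prior count. With 1 library per group no contrast has a test; intervals and the limit of 3 counts (6 if both mates were counted) cover counting error only. Both mates appear to be counted because 1339 genes had 2 counts and 583 had 3 in low-passage DPCs. The additive model used edgeR's quasi-likelihood test, with DESeq2 1.42.0 as the alternative. The fold-change step was tested on simulated data. Lists were described by counts and medians beside those of all tested genes. Shared windows are 50-base stretches of a gene's transcripts found in another gene of GENCODE M21. Figures were drawn with matplotlib.

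The members, lists and tests were chosen with earlier results of these data known. Values are given in most detail for the largest rise and fall of each group in each cell type, every member past 2-fold, the central factors and the paralog sets. The others are given mainly by ranges. Alternatives were other scalings, prior counts, minimum counts, FPKM with pseudocounts of 0.1 and 1, other fold thresholds, and leaving out members that overlap another gene. A correction for length and GC content (10 by 10 classes), a list of ribosomal proteins without S6 kinases and Rps19bp1, and leaving out members that share over 20% of windows were added after seeing the data.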

Additional observations from a re-analysis of the deposited data

Results flagged for a closer look

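For 4 factors the passage change pointed opposite ways in DPCs and DSCs, with counting intervals on either side of 0. With 1 library per passage in each cell type, the difference between the cell types was not tested. Eif3a, the core scaffold subunit of eIF3, was slightly higher at passage 9 in DPCs (0.06) and lower in DSCs (-0.21), a log2 difference, DPCs minus DSCs, of 0.27. After the length and GC correction Eif3a was at -0.12 in DPCs and -0.27 in DSCs, so the opposite direction was lost, while it was kept for the other 3 factors. Eif3e, another eIF3 subunit, differed by -0.69, being lower in DPCs (-0.35) and higher in DSCs (0.34). Eif4enif1, the transporter of eIF4E, differed by 0.43, being higher in DPCs (0.30) and lower in DSCs (-0.13). Eef2, the translocase, differed by -0.55, being lower in DPCs (-0.33) and higher in DSCs (0.22).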

How the results depend on the processing

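The median over all factors kept its sign under every alternative tried, between -0.54 and -0.44 in DPCs and between -0.31 and -0.24 in DSCs, and no value that passed 1.5-fold changed sign. The cause of the following shifts was not tested. DPCs over DSCs at passage 3 had a median of 0.19 with total counts and 0.19 with FPKM and a pseudocount of 0.1. These settings moved the median of all tested genes at passage 3 by 0.09 and 0.08. The eIF4 median in DPCs was -0.42 and -0.41 with FPKM at pseudocounts of 0.1 and 1, and -0.52 after the length and GC correction. Without members that overlap a gene on the same strand, the elongation medians were -1.16 in DPCs and -0.54 in DSCs, and that of eIF1, eIF5 and eIF6 was -0.71 in DPCs. Without members that share over 20% of windows, the elongation median in DSCs was -0.47. The single factor higher in DPCs, Eif4ebp3, became 0 with FPKM and a pseudocount of 1, with a minimum mean count of 100, and without overlapping or window-sharing members. In DSCs it became 2 with FPKM and a pseudocount of 0.1, and 0 with the minimum of 100, without overlapping or window-sharing members and at 4-fold. At 2-fold and 4-fold, 12 and 0 factors were lower in DPCs and 1 and 0 in DSCs, and 3 were lower in DSCs after the length and GC correction. With that correction Eef1akmt1 (-0.31) and Eif5a (-0.57) no longer passed 1.5-fold in DSCs. At passage 9, DPCs were lower than DSCs for 7 factors with FPKM and a pseudocount of 1, for 5 at 2-fold and for 1 at 4-fold. DPCs were higher for 1 factor at each passage with total counts and for 1 at each with FPKM and a pseudocount of 0.1. FPKM with that pseudocount moved the median of all genes at passage 9 by 0.10. Of 240 values of single genes, 172 stayed within their counting interval with total counts, 148 and 143 with FPKM at the pseudocounts of 0.1 and 1, 140 after the length and GC correction, and 231 or more under each other scaling, prior count and minimum. DESeq2 called 2 factors in the additive model and edgeR 0. No paired analysis was possible because each group has 1 library and no replicates to pair, apart from the additive model, which has cell type as a term. For the same reason no replicate could be left out. Depth limits Eif4ebp3 and, in DPCs, Eef1a2.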
